A study of Homo sapiens with 2 samples.

Results

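The cholesterol synthesis genes described here are SREBF2, HMGCS1, IDI1, FDFT1, SQLE, LSS and DHCR7, 7 of the 11619 genes with a row for both libraries. They were chosen by name, and all 7 had a value in each library. SREBF2 encodes the transcription factor that controls the pathway and the other 6 genes encode its enzymes, from an early step to the last. None of the 7 encodes a receptor or carrier for cholesterol uptake, so uptake is described from a separate list of genes. RNA was sequenced from NB4, a cell line from acute promyelocytic leukemia (APL) that carries the PML/RARα fusion, on day 3 after infection with a lentivirus. The sh-CRNDE cells carried an shRNA against the long non-coding RNA CRNDE, and the sh-Control cells carried a non-targeting shRNA. Both groups were grown in the same medium with fetal bovine serum. The study examined which genes change when CRNDE is silenced.

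Each group was 1 library, so the differences below cannot be set against a spread between replicates, and p-values were not computed. The study used more than one CRNDE shRNA, and the labels do not state which of them the sequenced cells carried. Expression is given as FPKM, fragments per kilobase of transcript scaled to library size, which can be compared between genes because it is scaled to length. The change of a gene is the difference of log2(FPKM + 1) between the libraries, positive where sh-CRNDE is higher, and a gene was said to have risen or fallen where its change was past 1.5-fold, which is 0.585 on this scale. The added 1 understates the change of genes with low values. The targeted gene CRNDE was at 5.92 FPKM with the control shRNA and 1.85 FPKM with the CRNDE shRNA, a change of -1.28. The promyelocyte marker MPO, myeloperoxidase of the primary granules, was at 1135 FPKM in the control library and 738 FPKM in the knockdown library. Of 6 promyelocyte markers 5 had a value, and their summed level was 1404 FPKM in sh-Control against 814 FPKM in sh-CRNDE, and the part of this difference in the results below was not tested. Of 15 T cell, B cell, erythroid, megakaryocyte and stromal markers 4 had a value, and no value was above 1.16 FPKM. In RNA from whole cultures, fewer cells of a type and less RNA per cell cannot be told apart.

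Cells make cholesterol from acetyl-CoA. The mevalonate pathway first builds isoprenoid units, which are joined to farnesyl diphosphate, and the sterol branch then couples these to squalene, closes the rings to lanosterol and converts lanosterol to cholesterol. The transcription factor SREBP-2, the product of SREBF2, is bound to SCAP and held in the endoplasmic reticulum by the INSIG proteins while sterols are plentiful. When sterols run low it is carried to the Golgi, cleaved and released to the nucleus, where it activates most genes of the pathway together, often with NF-Y and SP1. Dividing leukemia cells need cholesterol for new membranes, and the same pathway gives the isoprenoids that anchor small GTPases to membranes.

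The 7 genes did not move as one in sh-CRNDE. IDI1 fell past 1.5-fold and was at 41.3% of its sh-Control level. The other 6 genes were not past 1.5-fold, and their changes ran from -0.56 for DHCR7 to 0.44 for SQLE. Of the 7 genes 4 were lower and 3 were higher in sh-CRNDE by value. Of all 11619 genes, 17.2% were past 1.5-fold, with 8.38% higher and 8.83% lower. Against these shares, 1 of 7 is near the background and says nothing particular about the pathway. The median change of the 7 genes was -0.36, and that of all genes was -0.01.

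**Figure D1:**
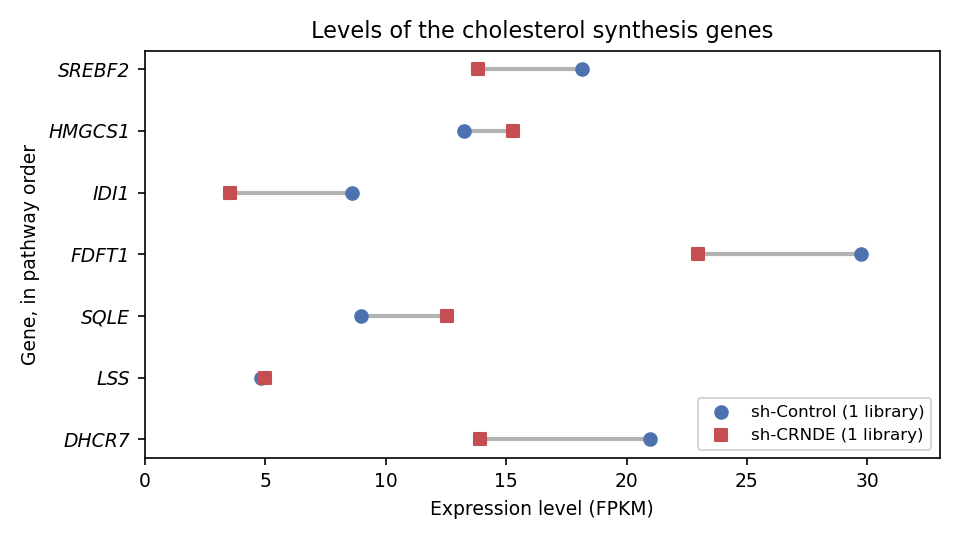
Expression level in FPKM (x axis) of the 7 genes in pathway order (y axis), with 1 circle for the sh-Control library and 1 square for the sh-CRNDE library. IDI1 moved from 8.62 to 3.56 FPKM, the largest relative distance, and both marks of LSS lie close to 5 FPKM.

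SREBF2 (ENSG00000198911, chromosome 22, 41833105 to 41907306, plus strand, GRCh38, 19 exons) was at 18.2 FPKM with the control shRNA and 13.8 FPKM with the CRNDE shRNA. Its change was -0.37, and 17.4% of all genes had a lower change. By level it ranked 3 of the 7 genes in the control library and 4 in the knockdown library. The microRNA gene MIR33A lies within it on the same strand, outside its exons, and was not analysed here. The opposite-strand gene SREBF2-AS1 shares 731 exonic bases with it and was at 0.795 FPKM in the control library and 1.06 FPKM in the knockdown library. The libraries were made with a kit that does not mark strand, so reads from shared bases cannot be assigned to one of the genes.

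The promoters of 5 of the 7 genes are given here because SREBP-2, NF-Y and SP1 act at such sequences, and the changes of these 5 genes ran from -1.08 for IDI1 to 0.19 for HMGCS1. The RefSeq table (GRCh38.p14) gave no entry for FDFT1 and SQLE, and 9 entries for the other 5 genes. Of these, the entry at the canonical start is printed for each gene. Each line is the 250 bases before the start of the canonical transcript, read 5′ to 3′ on the strand of the gene. They lie at chr22:41832855-41833104 on the plus strand for SREBF2, and on the minus strand at chr5:43313413-43313662 for HMGCS1, chr10:1049120-1049369 for IDI1, chr21:46228775-46229024 for LSS and chr11:71448394-71448643 for DHCR7. Capitals mark matches on either strand to TCACNCCAC, a form of the sterol regulatory element, CCAAT, the NF-Y box, GGGCGG, the SP1 box, and CACGTG, an E-box.
SREBF2: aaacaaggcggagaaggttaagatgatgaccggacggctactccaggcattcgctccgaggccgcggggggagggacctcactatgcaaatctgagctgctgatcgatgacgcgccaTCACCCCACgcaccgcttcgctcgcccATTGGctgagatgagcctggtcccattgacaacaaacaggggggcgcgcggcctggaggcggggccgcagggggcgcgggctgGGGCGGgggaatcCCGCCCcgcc
HMGCS1: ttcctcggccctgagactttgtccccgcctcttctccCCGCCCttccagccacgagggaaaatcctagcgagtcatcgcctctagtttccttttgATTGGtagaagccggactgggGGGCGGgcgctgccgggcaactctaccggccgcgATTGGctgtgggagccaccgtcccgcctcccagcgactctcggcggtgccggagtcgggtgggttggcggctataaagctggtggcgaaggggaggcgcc
IDI1: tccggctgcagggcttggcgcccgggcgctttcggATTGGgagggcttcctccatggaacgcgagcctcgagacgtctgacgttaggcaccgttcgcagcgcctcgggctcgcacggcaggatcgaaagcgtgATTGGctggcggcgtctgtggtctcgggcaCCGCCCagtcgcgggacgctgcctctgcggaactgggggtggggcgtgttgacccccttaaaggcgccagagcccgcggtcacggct
LSS: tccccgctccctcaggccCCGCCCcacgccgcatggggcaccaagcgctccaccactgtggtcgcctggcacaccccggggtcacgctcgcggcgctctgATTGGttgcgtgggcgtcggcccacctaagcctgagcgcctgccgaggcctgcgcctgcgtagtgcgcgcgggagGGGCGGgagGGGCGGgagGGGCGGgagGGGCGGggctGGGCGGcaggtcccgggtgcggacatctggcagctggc
DHCR7: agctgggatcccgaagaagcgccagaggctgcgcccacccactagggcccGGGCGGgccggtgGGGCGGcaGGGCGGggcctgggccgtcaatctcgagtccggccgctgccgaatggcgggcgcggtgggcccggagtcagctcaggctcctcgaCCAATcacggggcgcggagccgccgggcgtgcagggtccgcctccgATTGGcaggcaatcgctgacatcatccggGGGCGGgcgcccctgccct

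Of the 35116 promoter windows of 250 bases in the table, 0.883% held TCACNCCAC, 32.01% held CCAAT, 42.6% held GGGCGG and 6.34% held CACGTG. SREBF2 was the 1 gene of the 5 with a match to TCACNCCAC, 133 bases before its start, and its CCAAT match, read on the other strand, lay 106 bases before the start. CCAAT matched in every one of the 5 windows, once in SREBF2 and LSS and 2 times in HMGCS1, IDI1 and DHCR7. HMGCS1, IDI1 and DHCR7 have further entries that are not printed. CCAAT matched 0 times in those of HMGCS1 and DHCR7 and in the more distant of IDI1, and 3 times in the nearer of IDI1. The shares over all windows count every entry, while the 5 windows here are 1 per gene. GGGCGG matched once in IDI1, 2 times in SREBF2 and HMGCS1, 4 times in DHCR7 and 6 times in LSS. CACGTG matched in none of the 5 windows, and no match overlapped another. In the printed windows, IDI1, HMGCS1, LSS and DHCR7 each held CCAAT and GGGCGG and no TCACNCCAC. Whether such matches bear on the changes was not tested. A match is a description of the letters and not a site in use, and the absence of one says only that these letters are not in the window.

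HMGCS1 (ENSG00000112972, chromosome 5, 43287470 to 43313512, minus strand, 11 exons) encodes the cytosolic synthase that condenses acetoacetyl-CoA with acetyl-CoA to HMG-CoA. It was at 13.2 FPKM in sh-Control against 15.3 FPKM in sh-CRNDE, a change of 0.19. This lies within the interquartile range of all genes, which ran from -0.26 to 0.23. By level it ranked 4 of the 7 genes in sh-Control and 2 in sh-CRNDE, where DHCR7 and SREBF2 had dropped below it. A lncRNA gene on the opposite strand shares 2497 exonic bases with it and had no value here.

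IDI1 (ENSG00000067064, chromosome 10, 1039152 to 1049119, minus strand, 5 exons) encodes the isomerase that turns isopentenyl diphosphate into dimethylallyl diphosphate, so that the isoprenoid chain can start to grow. It was at 8.62 FPKM with the control shRNA and 3.56 FPKM with the CRNDE shRNA. Its change was -1.08, and its FPKM was 2.42-fold lower in sh-CRNDE. Of all genes, 2.83% had a lower change. A change at least as large in either direction was found in 6.34% of the 2525 genes whose mean FPKM was within 1.5-fold of that of IDI1. By level it ranked 6 of the 7 genes in sh-Control and 7 in sh-CRNDE. The antisense gene IDI2-AS1 shares 643 exonic bases with IDI1, and 3 annotated pseudogenes carry its name. These genes had no value here, and how reads shared with them were assigned is not given in the sources used here.

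FDFT1 (ENSG00000079459, chromosome 8, 11795573 to 11839395, plus strand, 8 exons) encodes squalene synthase, which commits farnesyl diphosphate to sterols. It was at 29.7 FPKM in the control library and 23.0 FPKM in the knockdown library, a change of -0.36. It had the highest level of the 7 genes in each library. Among the 1052 genes of similar mean level, 34.8% changed by as much or more. An opposite-strand lncRNA gene shares 217 exonic bases with FDFT1 and had no value here.

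SQLE (ENSG00000104549, chromosome 8, 124998497 to 125022283, plus strand, 11 exons) encodes squalene epoxidase, the first oxygen-dependent step. It was at 8.97 FPKM in sh-Control against 12.5 FPKM in sh-CRNDE, a change of 0.44. This was the highest change of the 7 genes, and 12.9% of all genes had a higher one. No other annotated gene overlaps SQLE. LSS (ENSG00000160285, chromosome 21, 46188141 to 46228824, minus strand, 22 exons) encodes lanosterol synthase, which closes the sterol rings. It was at 4.83 FPKM with the control shRNA and 4.98 FPKM with the CRNDE shRNA, a change of 0.04. Of the 2561 genes of similar mean level, 93.1% changed by as much or more. An opposite-strand lncRNA gene shares 448 exonic bases with LSS and had no value here. Another shares 122 exonic bases with LSS and was at 0.349 FPKM in sh-Control against 0.639 FPKM in sh-CRNDE.

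DHCR7 (ENSG00000172893, chromosome 11, 71428193 to 71452868, minus strand, 9 exons) encodes the reductase that turns 7-dehydrocholesterol into cholesterol. It was at 21.0 FPKM in the control library and 13.9 FPKM in the knockdown library, a change of -0.56. It thus lay just inside the threshold, while the ratio of its FPKM values, without the added 1, was 1.51-fold lower in sh-CRNDE. With an added value of 0.1 its change was -0.587 and with 0.01 it was -0.59, and as TPM it was -0.60, each past 1.5-fold, and with the correction for GC content given with the settings it was -0.37. Of all genes, 9.50% had a lower change. A lncRNA gene on the opposite strand overlaps DHCR7 but shares 0 exonic bases with it, and was at 3.61 FPKM in sh-Control against 3.99 FPKM in sh-CRNDE.

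**Figure D2:**
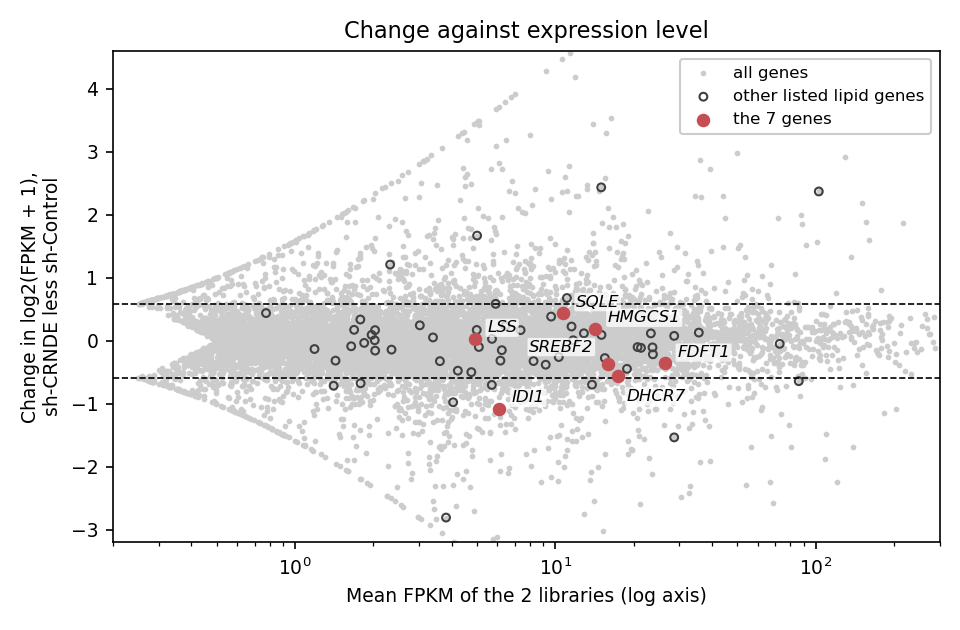
Change in log2(FPKM + 1), sh-CRNDE less sh-Control (y axis), against the mean FPKM of the libraries on a log axis (x axis). Grey points are all genes within the axes, open circles the other listed lipid genes and red points the 7 genes. The dashed lines are 1.5-fold, and of the 7 genes IDI1 (-1.08) alone lies beyond them.

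The balance between the enzymes can be read within each library. A ratio of FPKM values in 1 library does not depend on how the libraries were scaled to each other. Where genes differ in GC content, the shift given with the settings does not cancel in their ratios and shares. The summed level of the 6 enzymes was 86.4 FPKM with the control shRNA and 73.2 FPKM with the CRNDE shRNA, which is 84.8% of the sh-Control sum. IDI1 made up 9.98% of this sum in sh-Control and 4.86% in sh-CRNDE. SQLE went the other way, from 10.4% to 17.1%, and HMGCS1 from 15.3% to 20.9%. FDFT1 held the largest share in both libraries, 34.4% in sh-Control and 31.3% in sh-CRNDE.

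SQLE and IDI1 were nearly level in sh-Control, with 1.04 FPKM of SQLE for each FPKM of IDI1. In sh-CRNDE the ratio was 3.52. This 3.38-fold shift was the widest among the 21 pairs of the 7 genes, as it had to be, since SQLE had the highest and IDI1 the lowest change. Between the consecutive enzymes FDFT1, which makes squalene, and SQLE, which uses it, the ratio of SQLE to FDFT1 was 0.302 in sh-Control and 0.546 in sh-CRNDE. By these ratios the enzyme FDFT1 stayed closest to SREBF2, with 1.64 FPKM for each FPKM of SREBF2 in sh-Control and 1.66 in sh-CRNDE. With the correction for GC content, the change of SREBF2 was -0.18 and that of FDFT1 -0.41. The changes of DHCR7, at -0.37, and HMGCS1, at 0.02, then lay nearer to that of SREBF2. DHCR7 was at 4.34 times the level of LSS in sh-Control and at 2.80 times in sh-CRNDE. Without replicates, the spread of such ratios is not known.

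Other genes of the mevalonate and sterol steps, GGPS1 and ERG28 among them, were taken from a list by name. Some core genes of synthesis and uptake, among them genes with values in the files, are not reported here, and the counts of the lists do not include them. Besides the 7 genes, 14 listed mevalonate and sterol genes had a value. Of these, 2 rose, 1 fell and 11 were not past 1.5-fold, so 3 of 14 were past it beside 17.2% of all genes. Their median change was 0.08. PMVK, phosphomevalonate kinase, rose from 8.30 to 13.9 FPKM, a change of 0.68. GGPS1, which makes the geranylgeranyl diphosphate used to anchor small GTPases, rose from 1.88 to 8.14 FPKM, a change of 1.67. SC5D, the sterol C5-desaturase that acts just before DHCR7, fell from 2.43 to 1.15 FPKM, a change of -0.67. FDPS, which makes the farnesyl diphosphate that FDFT1 and GGPS1 draw on, was at 22.2 FPKM in the control library and 20.5 FPKM in the knockdown library. It has 8 annotated pseudogenes that carry its name and had no value here. LBR, a sterol C14-reductase of the nuclear envelope that also serves as the lamin B receptor, had the highest mean level of the listed sterol enzymes outside the 7 genes, at 27.9 FPKM in sh-Control against 29.4 FPKM in sh-CRNDE, a change of 0.08.

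Besides SREBF2, 8 genes that control SREBP were listed with a value, and by value 7 were lower and 1 higher in sh-CRNDE. Past 1.5-fold, 3 fell and 0 rose, beside 8.83% of all genes lower and 8.38% higher, and the median change of the 8 genes was -0.35 and that of all genes -0.01. INSIG1, which holds SCAP and SREBP in the endoplasmic reticulum, fell from 43.1 to 14.2 FPKM, a change of -1.53. SCAP, the escort of SREBP to the Golgi, fell from 17.4 to 10.3 FPKM, a change of -0.70. RNF139, a ubiquitin ligase of the endoplasmic reticulum that binds INSIG proteins, fell from 7.41 to 0.203 FPKM, a change of -2.81. RNF139 was thus under 1 FPKM in sh-CRNDE. SCAP has a GC content of 61.7%, and with the correction for GC content it was not past 1.5-fold, at -0.43.

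The uptake and release list held 9 genes with a value, and 1 of them rose, 1 fell and 7 stayed within 1.5-fold, so 22.2% were past it beside 17.2% of all genes. TMEM97, a protein that binds the lysosomal cholesterol transporter NPC1, rose from 4.01 to 26.04 FPKM, a change of 2.43. STARD4, which carries sterol between membranes, fell from 1.99 to 0.824 FPKM, a change of -0.71. SCARB1, the receptor for high-density lipoprotein and the gene of the list with the highest mean level over both libraries, was at 21.9 FPKM with the control shRNA and 15.8 FPKM with the CRNDE shRNA. Of 4 storage and efflux genes 0 were past 1.5-fold, beside the same 17.2% of all genes. The cholesterol exporter ABCA1, highest among them by its mean level over both libraries, was at 6.94 FPKM in the control library and 5.38 FPKM in the knockdown library. SOAT1, which esterifies cholesterol and was singled out after its values were seen, was at 4.53 FPKM in sh-Control against 7.29 FPKM in sh-CRNDE, a change of 0.5848 just under the threshold of 0.5850.

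Of 12 genes that use isoprenoids, 1 rose, 2 fell and 9 were not past 1.5-fold, with a median change of -0.05, so 3 of 12 were past it beside 17.2% of all genes. PGGT1B, the β-subunit of a protein geranylgeranyl transferase, rose from 1.01 to 3.64 FPKM, a change of 1.21. PDSS2 and COQ2, which act in coenzyme Q synthesis, fell, with changes of -0.98 and -0.70. PDSS2 was at 5.70 FPKM with the control shRNA and 2.41 FPKM with the CRNDE shRNA, and COQ2 at 7.31 FPKM and 4.11 FPKM. NUS1, a subunit of the prenyltransferase for dolichol with the highest level of the list, was at 34.0 FPKM in the control library and 37.2 FPKM in the knockdown library.

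Pseudogenes are annotated for several of the genes named here. Those of TMEM97, PGGT1B and SCD had no value here, and 1 of 4 named after NUS1 was at 4.51 FPKM in sh-Control and was listed at 0 in sh-CRNDE.

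Fatty acid synthesis is controlled mainly by SREBP-1, the product of SREBF1. Of 9 fatty acid synthesis genes, 1 rose, 1 fell and 7 were not past 1.5-fold, beside 17.2% of all genes past it, with a median change of -0.05. SCD, which makes monounsaturated fatty acids, rose from 32.7 to 173 FPKM, a change of 2.37. FASN, fatty acid synthase, fell from 105 to 67.1 FPKM, a change of -0.64, and -0.26 with the correction for GC content. Over all lists 56 genes besides the 7 had a value, and 13 of them were past 1.5-fold, with 5 higher and 8 lower, or 23.2% beside 17.2% of all genes. Their median change was -0.07.

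Across all genes the change fell as GC content rose, so each change was also given relative to genes of like GC content. The GC content of the canonical transcript was 37.9% for IDI1 and 39.0% for HMGCS1. It was 46.5% for FDFT1 and SQLE, 58.0% for SREBF2, and 58.1% for DHCR7 and LSS. The correction takes from each gene the median change at like GC content. This median was 0.18 for IDI1, 0.05 for FDFT1 and SQLE, and -0.19 for SREBF2, DHCR7 and LSS. With these medians subtracted, the change of IDI1 was -1.25, that of FDFT1 -0.41 and that of SREBF2 -0.18. SQLE was then at 0.39, LSS at 0.23 and HMGCS1 at 0.02. The direction of each of the 7 changes was the same in all 6 alternative settings. IDI1 was past 1.5-fold in every one of them, between -1.27 and -1.06. Another added value cannot reverse a direction, and all settings use the same libraries, so they do not stand in for replicates.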

How the data were processed

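RNA was measured in 1 sh-CRNDE and 1 sh-Control library of NB4 cells, assigned by their sample titles. The authors deposited FPKM values per gene. According to the submitters' processing notes, fastp 0.20.0, HISAT2 2.0.4, StringTie 1.2.3 and GRCh38 were used; per the labels and the methods, total RNA went into TruSeq RNA libraries, which were run on a MiSeq. A gene was listed where either library exceeded 0.5 FPKM. The low values, taken with canonical transcript lengths, showed no steps of whole reads. Steps could not appear if the authors' software used other lengths. The depth is thus unknown and no counting interval is given.

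From these values, log2(FPKM + 1) was taken and genes were matched by Ensembl identifier (11508 of 11619 found in GENCODE release 44, GRCh38). The 1.5-fold threshold follows the study, and the added 1 was chosen here. The members and lists were chosen with earlier results of these data known. Named genes are the 7 members, CRNDE, listed genes past 1.5-fold and the gene with the highest mean level of each list. MPO, as a check of the cell type, and SOAT1, chosen after its values were seen, are named outside this rule. Some genes of the pathway that have values are not reported here and were left out of the lists, also after values were seen. GC content is that of the canonical transcript, and its correction subtracts the median change in 20 bins of the genes that reach 1 FPKM in each library. Promoters are from RefSeq. The computation of the change and its calls was checked on simulated data without noise. That check cannot measure false calls between real libraries. Alternatives were other added values, centring, quantile normalization, TPM, filters and a 2-fold threshold. Python 3.11.15, numpy 2.4.6, pandas 2.3.3 and matplotlib 3.10.9 were used.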

Additional observations from a re-analysis of the deposited data

How the results depend on the processing

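With an added value of 0.1 or 0.01, or TPM without mitochondrial, ribosomal and small RNA genes, 2 of the 7 genes were past 1.5-fold instead of 1, because DHCR7 joined IDI1. Past 1.5-fold were then 3301 and 3481 of all 11619 genes with these added values, beside 2000 as reported. With these added values the count of 2 of 7 was thus again near the background. As TPM, 3133 of the genes kept were past 1.5-fold, but their total is not given here, so no share is set beside the count. At a threshold of 2-fold, 774 of all genes and 6 of the 56 wider list genes were past the threshold. Of the genes that reach 1 FPKM in each library, whose total is not given here, 1239 were past 1.5-fold. With the correction for GC content, the median change of the 7 genes was -0.18. Of 42 member values under the alternatives, 39 kept their direction and their side of the threshold, and the other 3 were those of DHCR7. The direction of the values under other added values was fixed in advance. No paired analysis was possible because each group is 1 library. The depth of the libraries is unknown, so the precision of a level of a few FPKM cannot be given.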
